A study of Mus musculus with 16 samples.

Results

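The genes described here were 10 genes of MHC class I antigen presentation, taken by symbol from 23279 symbols in the deposited expression table. They were the classical heavy chain genes H2-K1 and H2-D1, the non-classical heavy chain genes H2-T23, H2-Q5, H2-Q6, H2-Q7 and H2-Q9, the light chain gene B2m, and the peptide transporter genes Tap1 and Tap2. Each symbol had a single entry in the table, and all 10 passed the filter on low values (at least 1 FPKM in at least 4 of 16 libraries). H2-Q7 and H2-Q9 passed only through the groups where they were higher, so their differences between groups are not independent of the filter.

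Polyadenylated RNA of mouse pre-B cells was sequenced in 16 libraries. BCR-ABL1, the fusion kinase of chronic myeloid leukaemia and of one form of acute lymphoblastic leukaemia, was crossed with loss of SHP2, the phosphatase encoded by Ptpn11 that relays receptor signals to RAS and ERK. The study's title asks whether BCR-ABL1 needs SHP2 to induce blood cancers. The 4 groups of 4 libraries were SHP2 +/+ cells without BCR-ABL1, SHP2 -/- cells without BCR-ABL1, SHP2 +/+ cells with BCR-ABL1 and SHP2 -/- cells with BCR-ABL1. They are called wild-type, SHP2-null, BCR-ABL1 wild-type and BCR-ABL1 SHP2-null below, and single libraries by the replicate numbers 0 to 3 of their titles. The labels write cells without BCR-ABL1 as BCR-ABL NULL (-/-) and cells with it as BCR-ABL WT (+/+). They give no strain, age, means of SHP2 removal or means of BCR-ABL1 delivery, and they do not tie a library to an animal or culture. The p-values therefore cover library-to-library spread, which may be technical.

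MHC class I molecules display short peptides from inside the cell to CD8 T cells and to receptors of natural killer cells. A polymorphic heavy chain pairs with β2-microglobulin in the endoplasmic reticulum and is loaded there with peptides that the proteasome makes and the TAP transporter carries across the membrane. The genes are expressed in nearly all nucleated cells, B-lineage cells included, and are known targets of interferons, of NF-kB and of the transactivator NLRC5, which binds through the RFX proteins at a conserved module of their promoters.

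Expression is given as FPKM, sequenced fragments scaled by transcript length and by the library's mapped total. Ptpn11, the gene targeted in the SHP2-null groups, had a mean of 16.8 ± 0.647 FPKM (SD, n = 4) in wild-type and of 5.79 ± 2.03 in SHP2-null libraries, against 17 ± 0.957 and 4.52 ± 1.21 in the respective BCR-ABL1 groups, with no overlap between SHP2 states. The depth behind each value was unknown because the files hold no counts; low values placed the deepest library at about 1.6 times the shallowest. All 11 pre-B markers averaged at least 1 FPKM in each group. Of 8 myeloid markers, 7 were in the table, and their summed level ran from 7.87 to 30.8 FPKM in wild-type, 7.59 to 421 in SHP2-null, 3.56 to 10 in BCR-ABL1 wild-type and 3.4 to 7.57 in BCR-ABL1 SHP2-null libraries. The value of 421 belonged to SHP2-null library 2, in which Lyz2, the myeloid lysozyme gene, stood at 402.6 FPKM. Cd68, Csf1r, Itgam and Cd14 also had their highest values in the SHP2-null group, at 12.4, 3.57, 1.96 and 0.184 FPKM. Mpo and Elane were highest in BCR-ABL1 wild-type libraries, at 0.518 and 0.0797 FPKM. Elane was at 0 in all wild-type and all BCR-ABL1 SHP2-null libraries. SHP2-null library 2 also held the highest value of its group in 8 of the 10 class I genes, all but H2-Q7 and Tap2, so the changes that use its group are also given without it. The summed T and NK cell, dendritic, stromal and erythroid markers reached at most 0.821, 1.85, 0.0821 and 0.119 FPKM in any library. In bulk RNA, fewer cells of a type and less RNA per cell cannot be told apart.

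Most of the genes lie in the H2 complex on chromosome 17 (GENCODE M21, GRCm38). H2-K1 spans 33996017 to 34000347 on the minus strand, at the centromeric end. Tap1 (34187553 to 34197225) and Tap2 (34203527 to 34216321) follow on the plus strand. H2-D1 (35262730 to 35267499), H2-Q5 (35394126 to 35397800), H2-Q6 (35424850 to 35430055) and H2-Q7 (35439155 to 35443773) are on the plus strand, and H2-T23 (36029773 to 36032855) is on the minus strand. B2m is on chromosome 2, at 122147686 to 122153083. H2-Q5 is annotated as a polymorphic pseudogene, a gene that is intact in some strains only. H2-Q9 has no entry in that annotation.

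The heavy chain genes are close copies of one another, which matters for reading values made from 100-base reads. The stretch printed here is bases 181 to 240 of the H2-K1 coding sequence, part of the peptide-binding alpha-1 domain, with the bases of the other heavy chains aligned to it, from the GENCODE M21 transcripts. Capitals mark bases that differ from H2-K1.
H2-K1: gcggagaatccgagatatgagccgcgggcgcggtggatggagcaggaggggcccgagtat
H2-D1: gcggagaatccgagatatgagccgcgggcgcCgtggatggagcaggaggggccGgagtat
H2-T23: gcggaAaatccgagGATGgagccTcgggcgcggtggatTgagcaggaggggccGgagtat
H2-Q5: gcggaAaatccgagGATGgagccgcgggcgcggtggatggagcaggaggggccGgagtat
H2-Q6: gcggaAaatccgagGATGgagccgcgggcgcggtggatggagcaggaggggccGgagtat
H2-Q7: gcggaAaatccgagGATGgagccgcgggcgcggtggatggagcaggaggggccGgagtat
Over these 60 bases H2-D1 differed from H2-K1 at 2 and H2-T23 at 8, and H2-Q5, H2-Q6 and H2-Q7 each had the same 6 differences. Over the whole coding sequence, H2-K1 and H2-D1 were 91.5% identical, H2-Q6 and H2-Q7 95.5%, H2-Q5 and H2-Q7 96.7%, and H2-K1 and H2-T23 82%. The longest identical run was 265 bases between H2-Q6 and H2-Q7 and 91 bases between H2-K1 and H2-D1.

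A read of 100 bases can be placed on one gene only where no other transcript holds the same bases. Of the distinct 100-base windows in the transcripts of each gene, none of H2-K1 (0 of 2262) and none of B2m (0 of 761) occurred in another gene's transcripts on either strand. The share was 4.09% in H2-D1, 7.28% in H2-T23, 3.71% in Tap1 and 5.07% in Tap2. It was highest in the Qa-2 region genes, at 11.6% in H2-Q5, 13% in H2-Q6 and 17.2% in H2-Q7, the partners being mainly each other. H2-Q8 and H2-Q9 were not in these transcripts, so the shares of H2-Q6 and H2-Q7 are lower limits. No label says how the authors' counting divided such reads.

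Promoter sequence was in the RefSeq table (GRCm38.p6) for 7 of the 10 genes. The 250 bases before the RefSeq transcription start were searched in each, and matches in the nearest 180 are described. These 180 bases are printed 5′ to 3′ on the gene's strand for H2-K1, H2-Q6, H2-Q7 and B2m, to show how alike H2-K1 and the Qa-2 genes are there. Those of H2-D1, H2-T23 and Tap1 are not printed because they run into transcribed sequence of GENCODE M21, in which H2-D1 and H2-T23 start further upstream than in RefSeq and the Tap1 stretch overlaps Psmb9. Capitals mark matches, on either strand, to AANNGAAA (the core of interferon regulatory factor sites), to CCAAT, to TGACG (a CREB and ATF half-site, the core of the X2 box of class I promoters), and to the NF-kB consensus, which in H2-K1 and H2-Q6 matched at overlapping positions.
H2-K1, chr17:34000348-34000527, minus strand: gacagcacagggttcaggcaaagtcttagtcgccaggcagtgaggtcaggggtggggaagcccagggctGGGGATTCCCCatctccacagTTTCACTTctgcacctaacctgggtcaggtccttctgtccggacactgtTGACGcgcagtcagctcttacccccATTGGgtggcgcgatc
H2-Q6, chr17:35424670-35424849, plus strand: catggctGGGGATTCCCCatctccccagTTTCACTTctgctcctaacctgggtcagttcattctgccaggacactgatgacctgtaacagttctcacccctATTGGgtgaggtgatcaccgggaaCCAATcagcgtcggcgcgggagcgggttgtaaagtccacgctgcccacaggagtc
H2-Q7, chr17:35438975-35439154, plus strand: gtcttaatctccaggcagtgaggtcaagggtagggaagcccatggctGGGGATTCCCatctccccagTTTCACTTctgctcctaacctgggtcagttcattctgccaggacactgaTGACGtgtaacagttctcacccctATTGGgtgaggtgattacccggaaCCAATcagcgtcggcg
B2m, chr2:122147507-122147686, plus strand: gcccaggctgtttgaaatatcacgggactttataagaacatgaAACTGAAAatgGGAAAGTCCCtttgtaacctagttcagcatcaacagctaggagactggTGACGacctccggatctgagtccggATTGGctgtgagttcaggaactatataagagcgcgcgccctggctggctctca
In H2-K1, H2-D1, H2-Q6 and H2-Q7 the NF-kB match was followed in the same order by the interferon factor core and CCAAT on one or both strands, with TGACG between them in all but H2-Q6. B2m held all 4 motifs with other sequence around them, H2-T23 held the interferon factor core and CCAAT, and Tap1 held TGACG. Beyond the 180 bases Tap1 also held CCAAT, at -222 to -218 from the start. Of 32817 promoters searched over the same 180 bases, 15.1% held AANNGAAA, 27.5% CCAAT, 14.8% TGACG and 5.49% the NF-kB consensus. A match is a description of the letters, not of binding in these cells.

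H2-K1, a classical heavy chain that presents peptides to CD8 T cells, spanned the wider range of the classical pair. It stood at 163.7, 203.7, 177.9 and 193.5 FPKM in wild-type libraries 0 to 3 and at 260, 241.3, 416.5 and 316.8 FPKM in SHP2-null libraries. It stood at 268, 284.4, 342.6 and 321.3 FPKM in BCR-ABL1 wild-type and at 274.9, 308.9, 356.8 and 391.9 FPKM in BCR-ABL1 SHP2-null libraries. All 4 wild-type libraries lay below all 12 others, and the other 3 groups overlapped. Its change in log2(FPKM + 1) was 0.71 ± 0.16 (SE) with SHP2 loss in the absence of BCR-ABL1 (limma adjusted p = 0.0315) and 0.71 ± 0.16 with BCR-ABL1 in SHP2 wild-type cells (adjusted p = 0.0158). Without SHP2-null library 2, the one high in Lyz2, the first was 0.55 (adjusted p = 0.0772).

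H2-D1, the other classical heavy chain in the table, stood at 162.7, 195.3, 188.3 and 201.2 FPKM in wild-type libraries. It stood at 240.6, 229.1, 349.8 and 290.5 FPKM in SHP2-null, 231.1, 255.9, 313.2 and 283.1 FPKM in BCR-ABL1 wild-type and 229.8, 273.6, 299.4 and 348.9 FPKM in BCR-ABL1 SHP2-null libraries. The wild-type group again lay wholly below the rest. Neither change of H2-D1 passed the test as fitted, at 0.55 ± 0.15 with SHP2 loss (limma adjusted p = 0.0826) and 0.53 ± 0.15 with BCR-ABL1 (adjusted p = 0.0546). With libraries paired by replicate number the first did pass (adjusted p = 0.00577), and without SHP2-null library 2 its unpaired value was 0.43 (adjusted p = 0.22). With replicate number as a block the second passed too (limma adjusted p = 0.00339), though same-number libraries were not taken as pairs in that comparison.

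H2-T23 encodes Qa-1, a non-classical heavy chain of limited variation that is recognised by CD94-NKG2 receptors of natural killer cells. Its levels were 20.42, 24.79, 23.58 and 25.07 FPKM in wild-type, 31.05, 32.16, 37.04 and 29.88 FPKM in SHP2-null, 35.49, 33.69, 40.92 and 32.25 FPKM in BCR-ABL1 wild-type and 31.64, 39.24, 43.32 and 47.07 FPKM in BCR-ABL1 SHP2-null libraries. No wild-type library reached the lowest of the others. H2-T23 rose by 0.58 ± 0.11 with BCR-ABL1 in SHP2 wild-type cells (limma adjusted p = 0.00817), and its change with SHP2 loss alone was 0.45 ± 0.11 (adjusted p = 0.06). The latter passed with the pairing (limma adjusted p = 0.0166) and was 0.39 without SHP2-null library 2 (adjusted p = 0.179, unpaired).

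**Figure D1:**
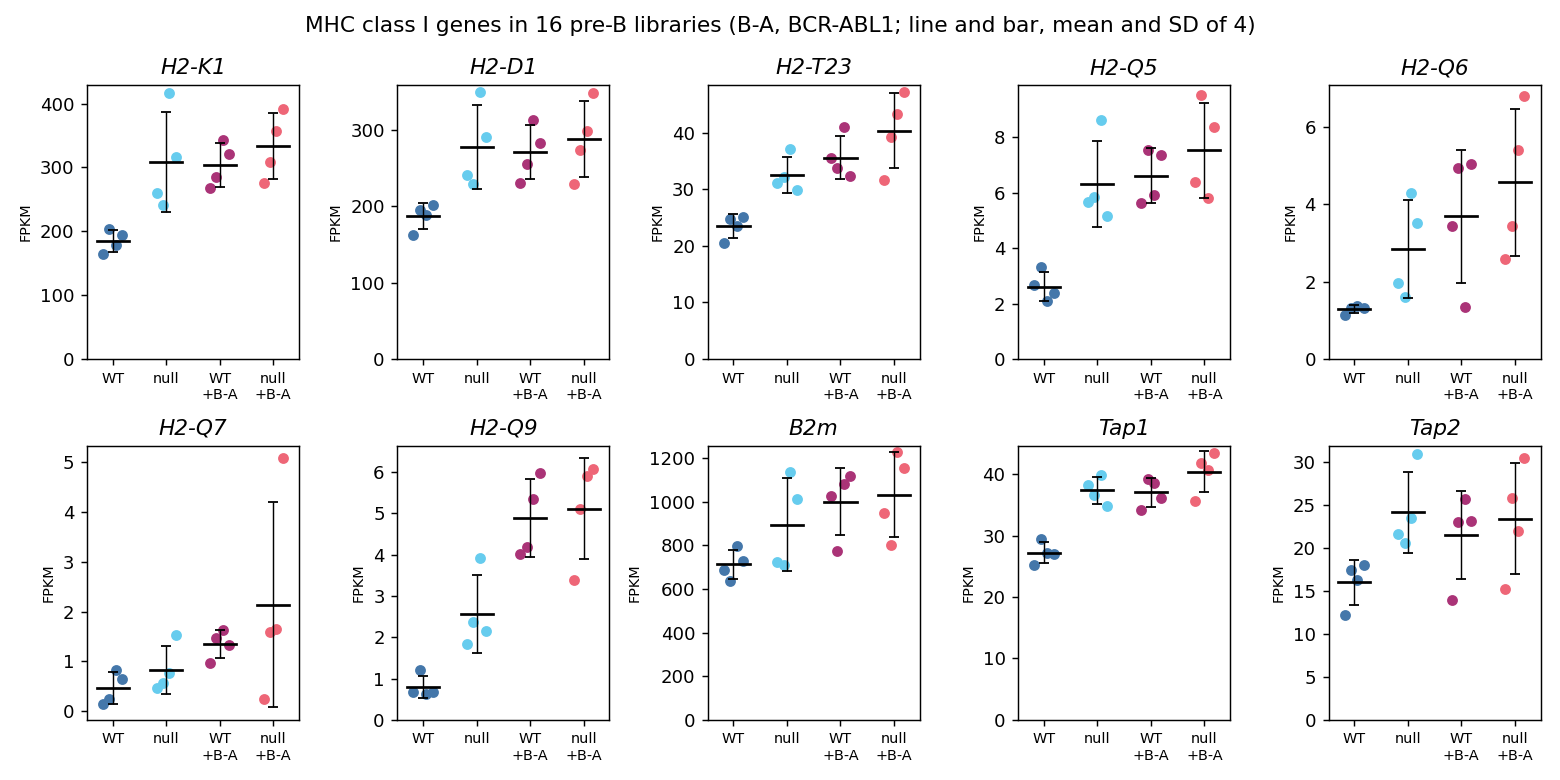
FPKM (vertical axes, each from 0 and with its own range) of the 10 genes in the 4 groups, with 1 point per library and the mean and SD of 4 libraries in black; WT and null give the SHP2 state and B-A marks BCR-ABL1. The wild-type group without BCR-ABL1 has the lowest mean in all 10 genes, and its points lie below every SHP2-null point in 8 of them, all but H2-Q7 and B2m.

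The Qa-2 region genes among the 10 (H2-Q5, H2-Q6, H2-Q7 and H2-Q9) were expressed at a few FPKM or less, far below H2-K1 and H2-D1 on this per-length scale. On the log2(FPKM + 1) scale H2-Q5 and H2-Q9 had the largest estimates of the 10 genes with SHP2 loss alone and with BCR-ABL1 in SHP2 wild-type cells. H2-Q5 stood at 2.677, 3.305, 2.101 and 2.365 FPKM in wild-type and at 5.658, 5.855, 8.61 and 5.141 FPKM in SHP2-null libraries. With BCR-ABL1 it stood at 5.607, 7.531, 5.918 and 7.366 FPKM in SHP2 wild-type and at 6.394, 9.51, 5.812 and 8.365 FPKM in SHP2-null libraries. The wild-type group was separate from the other 3, which overlapped one another. H2-Q5 rose by 1.08 ± 0.16 with BCR-ABL1 in SHP2 wild-type cells (limma adjusted p = 0.00103), a ratio of means of 2.53, and by 1.01 ± 0.16 with SHP2 loss alone (adjusted p = 0.00369). Both calls held in all 28 alternative settings, the second at 0.87 without SHP2-null library 2 (adjusted p = 0.00921).

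H2-Q9, which encodes a form of the Qa-2 antigen, had the steepest gradient. It stood at 0.6804, 1.198, 0.6225 and 0.6736 FPKM in wild-type and at 1.826, 2.358, 3.927 and 2.144 FPKM in SHP2-null libraries. With BCR-ABL1 it stood at 4.016, 4.188, 5.352 and 5.982 FPKM in SHP2 wild-type and at 3.381, 5.099, 5.904 and 6.08 FPKM in SHP2-null libraries. The SHP2-null libraries lay between the wild-type libraries and those with BCR-ABL1, apart from SHP2-null library 2, whose 3.927 FPKM exceeded the lowest BCR-ABL1 SHP2-null value. H2-Q9 rose by 0.97 ± 0.18 with SHP2 loss alone (limma adjusted p = 0.0121) and by 1.71 ± 0.18 with BCR-ABL1 in SHP2 wild-type cells (adjusted p = 4.61e-05). Without SHP2-null library 2 the first was 0.80 (adjusted p = 0.0328). H2-Q9 also passed for BCR-ABL1 in SHP2-null cells, by 0.79 ± 0.18 (adjusted p = 0.0484), a call that held in 7 of 26 alternative settings and was lost in 19, with adjusted p from 0.00112 to 0.192.

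H2-Q6 and H2-Q7, which also encode Qa-2 chains, varied more between libraries of a group. H2-Q6 ran from 1.148 to 1.377 FPKM in wild-type, 1.613 to 4.288 FPKM in SHP2-null, 1.345 to 5.027 FPKM in BCR-ABL1 wild-type and 2.591 to 6.793 FPKM in BCR-ABL1 SHP2-null libraries. H2-Q7 ran from 0.1473 to 0.8361, 0.4696 to 1.53, 0.9604 to 1.629 and 0.2456 to 5.087 FPKM in the same groups. Neither gene passed in any comparison as fitted. With SHP2 loss alone the estimates were 0.69 ± 0.30 for H2-Q6 (limma adjusted p = 0.275) and 0.31 ± 0.34 for H2-Q7 (adjusted p = 0.69), and 0.52 and 0.32 without SHP2-null library 2. With BCR-ABL1 in SHP2 wild-type cells the estimate was 0.94 ± 0.30 for H2-Q6 (limma adjusted p = 0.0888) and 0.70 ± 0.34 for H2-Q7 (adjusted p = 0.279). With the replicate block H2-Q6 passed in this comparison (limma adjusted p = 0.0478).

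H2-Q8, the remaining gene of the group and not among the 10, was listed below 0.01 FPKM in 11 libraries and at 0.5066 to 4.364 FPKM in the other 5. In BCR-ABL1 wild-type library 2 H2-Q8 stood at 4.364 FPKM, or 34.4% of the H2-Q6 to H2-Q9 sum, and H2-Q6 at 1.345 FPKM, its lowest value among the libraries with BCR-ABL1. The other libraries with H2-Q8 varied. In SHP2-null library 1 H2-Q8 stood at 0.6469 FPKM and H2-Q6 at 1.613 FPKM, the lowest H2-Q6 value of its group. In BCR-ABL1 SHP2-null library 1 they stood at 2.215 and 3.445 FPKM, H2-Q6 lying within the range of the group. In BCR-ABL1 SHP2-null library 3 H2-Q8 stood at 1.955 FPKM and H2-Q6 at 6.793 FPKM, the highest of its group. In SHP2-null library 2 they stood at 0.5066 and 4.288 FPKM, the H2-Q6 value again being the highest of its group. Whether reads were divided differently among these genes was not tested. Without BCR-ABL1 wild-type library 2 H2-Q6 rose by 1.24 with BCR-ABL1 in SHP2 wild-type cells (limma adjusted p = 0.0186).

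Summed over H2-Q6, H2-Q7, H2-Q8 and H2-Q9, the wild-type libraries had 1.976, 2.761, 2.836 and 2.622 FPKM and the SHP2-null libraries had 4.263, 5.176, 9.477 and 7.198 FPKM. The sum was 8.404, 10.59, 12.69 and 12.35 FPKM in BCR-ABL1 wild-type and 6.218, 12.34, 12.96 and 19.92 FPKM in BCR-ABL1 SHP2-null libraries. The wild-type libraries were below all others. Fitted in place of its 4 genes, the sum rose by 1.75 ± 0.26 with BCR-ABL1 in SHP2 wild-type cells (limma adjusted p = 0.00110) and changed by 1.04 ± 0.26 with SHP2 loss alone (adjusted p = 0.0609).

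**Figure D2:**
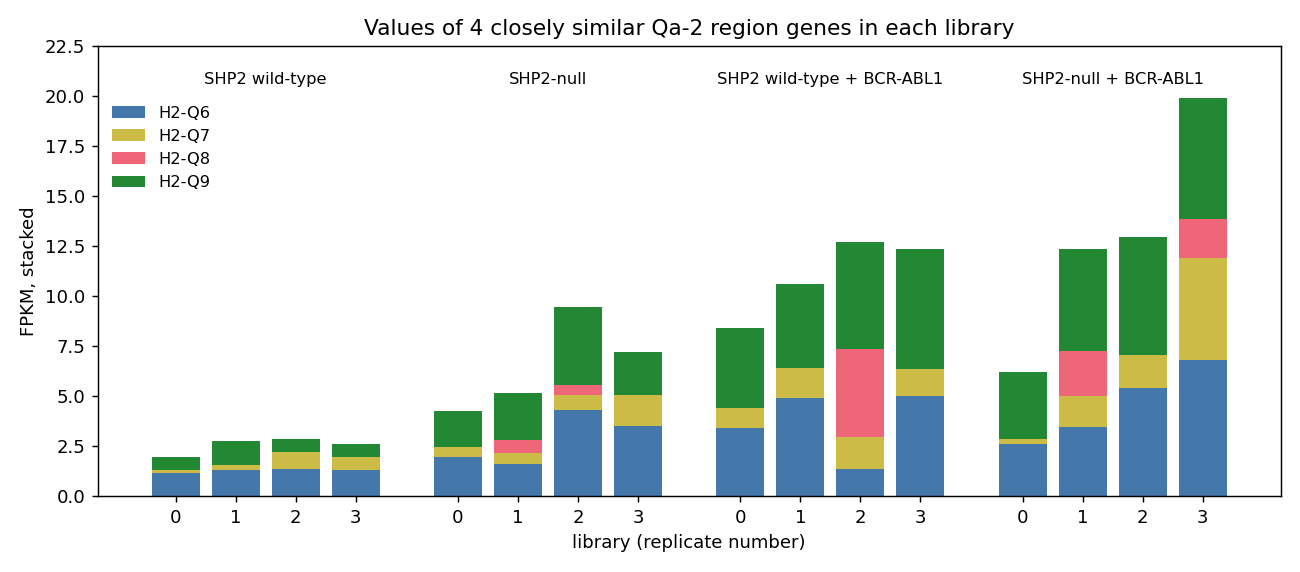
FPKM of H2-Q6, H2-Q7, H2-Q8 and H2-Q9 stacked (vertical axis, from 0) in each of the 16 libraries, labelled by replicate number within the 4 groups. The stacks reach 1.976 to 2.836 FPKM in the wild-type group and 4.263 to 19.92 FPKM in the others, and the H2-Q8 part is visible in 5 libraries, most of all in BCR-ABL1 wild-type library 2.

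B2m, the invariant light chain shared by all class I molecules, had the highest level of the 10 genes, and its changes did not pass as fitted. It stood at 688.8, 637.9, 796.9 and 729.5 FPKM in wild-type and at 721.4, 710.8, 1134 and 1013 FPKM in SHP2-null libraries, which overlapped. It stood at 1026, 774.8, 1082 and 1118 FPKM in BCR-ABL1 wild-type and at 947.5, 801.4, 1226 and 1156 FPKM in BCR-ABL1 SHP2-null libraries. Its change was 0.48 ± 0.18 with BCR-ABL1 in SHP2 wild-type cells (limma adjusted p = 0.142) and 0.30 ± 0.18 with SHP2 loss alone (adjusted p = 0.423), the latter falling to 0.18 without SHP2-null library 2. With the replicate block the change with BCR-ABL1 passed (limma adjusted p = 0.00747) and that with SHP2 loss alone did not (adjusted p = 0.0769).

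Tap1, a subunit of the peptide transporter, changed by less than H2-Q5 but with little spread between libraries. It stood at 25.18, 29.38, 27.23 and 27.06 FPKM in wild-type, 38.27, 36.67, 39.8 and 34.77 FPKM in SHP2-null, 34.2, 39.28, 38.6 and 36.13 FPKM in BCR-ABL1 wild-type and 35.66, 41.81, 40.62 and 43.4 FPKM in BCR-ABL1 SHP2-null libraries. The 4 wild-type libraries were the 4 lowest of the 16. Tap1 rose by 0.44 ± 0.07 with SHP2 loss alone (limma adjusted p = 0.00454), by 0.41 without SHP2-null library 2 (adjusted p = 0.0184), and by 0.43 ± 0.07 with BCR-ABL1 in SHP2 wild-type cells (adjusted p = 0.00338).

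Tap2, the other subunit, was more scattered, at 12.19 to 18.06 FPKM in wild-type, 20.54 to 30.95 FPKM in SHP2-null, 13.97 to 25.73 FPKM in BCR-ABL1 wild-type and 15.25 to 30.5 FPKM in BCR-ABL1 SHP2-null libraries. The wild-type libraries lay below the SHP2-null libraries and overlapped both groups with BCR-ABL1. Its changes were 0.56 ± 0.21 with SHP2 loss alone (limma adjusted p = 0.206, and 0.0183 with the pairing, 0.57 without SHP2-null library 2) and 0.38 ± 0.21 with BCR-ABL1 in SHP2 wild-type cells (adjusted p = 0.348).

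Counted over the 10 genes, SHP2 loss without BCR-ABL1 raised 4 (H2-K1, H2-Q5, H2-Q9 and Tap1) and lowered 0 at an adjusted p below 0.05, where 1.54% of the 10210 genes tested were called in either direction. In 8 of the 10 the SHP2-null libraries all lay above the wild-type libraries, as in 6.02% of all genes. H2-Q9, included in both counts, passed the low-value filter only through the groups where it was higher, so it adds no separate support. The median change was 0.56 against 0.02 over all genes, and all 10 estimates were positive, against 55.9% of all genes. With the replicate number as a block, which paired libraries in this comparison, 7 were called (5.75% of all genes), H2-D1, H2-T23 and Tap2 being the additions. The H2-K1 call was lost in 8 of 28 alternative settings, including 5 that left out a single library (SHP2-null 2 or 3, wild-type 0, 2 or 3), with limma adjusted p from 0.0686 to 0.0978. Without SHP2-null library 2, the one high in Lyz2, 3 genes were called and the median was 0.47, with all 10 estimates positive. Without wild-type library 2 the H2-Q9 call was lost too (adjusted p = 0.0504), which left 2 genes called.

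BCR-ABL1 in SHP2 wild-type cells raised 5 of the 10 (H2-K1, H2-T23, H2-Q5, H2-Q9 and Tap1) and lowered 0, where 4.67% of all genes were called. In 7 of the 10 the BCR-ABL1 libraries all lay above the wild-type libraries, as in 7.66% of all genes, the exceptions being H2-Q6, B2m and Tap2. H2-Q9, counted as called and separate, and H2-Q7, counted as separate, passed the low-value filter only through groups where they were higher. The median change was 0.64 against 0.04 over all genes. With the replicate block 8 were called (12.1% of all genes), H2-D1, H2-Q6 and B2m being the additions. Same-number libraries were not taken as pairs in this comparison. The H2-K1 call was lost without wild-type library 2 (limma adjusted p = 0.0528) or BCR-ABL1 wild-type library 2 (adjusted p = 0.0521). This comparison and SHP2 loss without BCR-ABL1 share the 4 wild-type libraries, the lowest group in all 10 genes, so they are not independent of one another.

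With SHP2 loss in BCR-ABL1 cells, limma called 0 of the 10 (0 also at an unadjusted p below 0.05 and with the replicate block), where 0.313% of all genes were called, and in 0 of the 10 did the groups separate, against 1.42% of all genes with the null libraries on top. The estimates ran from 0.04 (H2-Q9 and B2m) to 0.28 (H2-Q6), with a median of 0.12 against -0.02 over all genes. With BCR-ABL1 in SHP2-null cells 1 gene was called, H2-Q9, where 1.26% of all genes were, and 0 separated, against 3.76%. The median there was 0.22 against -0.01, and the Tap2 estimate was negative at -0.07 ± 0.21. Without SHP2-null library 2 the median was 0.34, with H2-Q9 at 0.95 (limma adjusted p = 0.00905), H2-Q6 at 0.70, H2-K1 at 0.28 and H2-D1 at 0.18.

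Whether the effect of SHP2 loss differed with BCR-ABL1 was tested as an interaction, which asks whether the combination departs from the sum of the separate changes. All 10 estimates were negative, with a median of -0.43 against -0.04 over all genes, and were most negative in H2-Q9 (-0.92 ± 0.26) and H2-Q5 (-0.86 ± 0.23). By limma none of the 10 passed adjustment (adjusted p = 0.606 for these 2), and 5 of the 10 had an unadjusted p below 0.05. Over all genes, percent called was 0, with 591 genes (5.79%) at an unadjusted p below 0.05, and 0 were called with the replicate block. The median was -0.32 without SHP2-null library 2, with all 10 estimates negative and the smallest adjusted p at 0.743. A difference between the effects was therefore not established for any single gene.

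**Figure D3:**
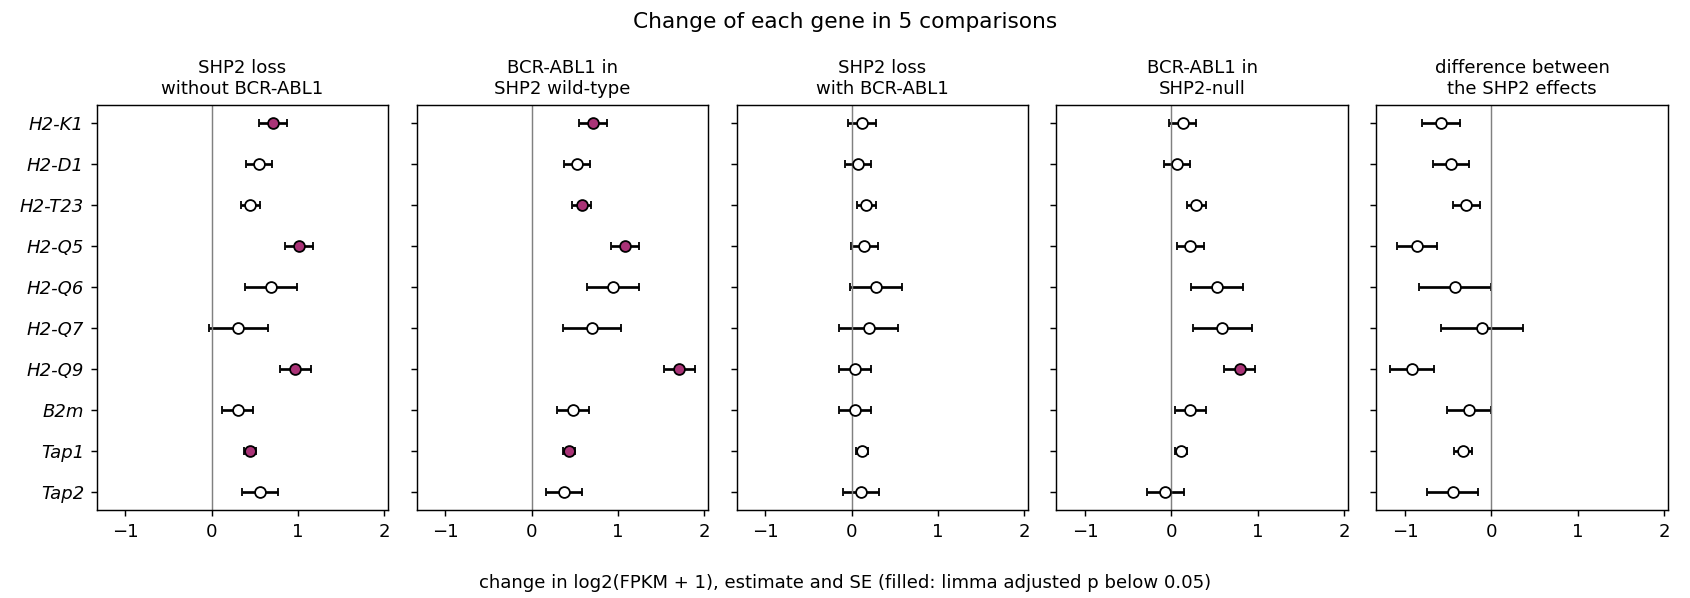
Change in log2(FPKM + 1) with its SE (horizontal axis) of the 10 genes in 5 comparisons, filled where the limma adjusted p is below 0.05; the last panel is the SHP2 effect with BCR-ABL1 minus that without. The first 2 panels hold 4 and 5 filled points, the third 0, the fourth 1 (H2-Q9) and the last 0.

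The other class I heavy chain genes that were tested all had positive estimates in the same comparisons, and some rose. Of 29 (31 with H2-Ke2 and H2-Ke6, which the symbol rule matched and which encode no heavy chain), 11 were tested. SHP2 loss alone raised 3 and lowered 0 of the 11 and BCR-ABL1 in SHP2 wild-type cells raised 5 and lowered 0, with medians of 0.35 and 0.44 and all 11 estimates positive in both. Over all genes 1.54% and 4.67% were called in these comparisons. With the replicate block 7 of the 11 rose with SHP2 loss alone, where 5.75% of all genes were called. H2-T10, H2-Q4 and H2-T9 passed in both comparisons, and H2-K2 (0.58) and H2-M3 (0.44) passed with BCR-ABL1, the difference between the comparisons not being tested. H2-T10, a non-classical gene with an open peptide groove that binds gamma-delta T cell receptors, averaged 4.8 ± 0.345 FPKM (SD, n = 4) in wild-type, 7.68 ± 0.182 FPKM in SHP2-null, 8.02 ± 0.654 FPKM in BCR-ABL1 wild-type and 9.12 ± 0.487 FPKM in BCR-ABL1 SHP2-null libraries. It rose by 0.58 ± 0.06 with SHP2 loss alone (limma adjusted p = 0.000174) and by 0.64 ± 0.06 with BCR-ABL1 (adjusted p = 3.35e-05). H2-Q4, another Qa-2 region gene, went from 28.4 ± 1.46 FPKM in wild-type to 46 ± 8.78 FPKM in SHP2-null and 47 ± 3.91 FPKM in BCR-ABL1 wild-type libraries. Without SHP2-null library 2, H2-T10 and H2-Q4 still passed with SHP2 loss alone (limma adjusted p = 0.00071 and 0.00879), and H2-T9 did not (adjusted p = 0.0679).

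Genes of peptide supply and loading had smaller median changes. Of 6 peptide loading genes (Tapbp, Tapbpl, Calr, Canx, Pdia3 and Erap1) 0 were called in either comparison, with medians of 0.04 and 0.03 (limma, 1 and 0 at an unadjusted p below 0.05). Tapasin, encoded by Tapbp, which bridges TAP and the heavy chain, averaged 18.8 ± 2.25 FPKM in wild-type and 22.9 ± 2.17 FPKM in SHP2-null libraries (adjusted p = 0.28). Of 8 proteasome genes (the inducible Psmb8, Psmb9 and Psmb10, their constitutive counterparts and the activator subunits Psme1 and Psme2) 0 were called in either, with medians of 0.13 and 0.12 (1 in each at an unadjusted p below 0.05). Psmb9, whose promoter is shared with Tap1 in the opposite direction, averaged 45 ± 4.83 FPKM in wild-type, 60.4 ± 11.4 FPKM in SHP2-null and 59.2 ± 12 FPKM in BCR-ABL1 wild-type libraries, with changes of 0.40 ± 0.16 and 0.37 ± 0.16 (adjusted p = 0.245 and 0.227). With the block Psmb9 was called in both, with SHP2 loss alone and with BCR-ABL1 (limma adjusted p = 0.0202 and 0.0164). It was the 1 call among the 8 in each, where 5.75% and 12.1% of all genes were called.

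Among 12 regulators of class I transcription, 1 rose with SHP2 loss alone and 3 with BCR-ABL1 in SHP2 wild-type cells, with 0 lower in both and medians of 0.22 and 0.17. Over all genes 1.54% and 4.67% were called. Of the 12, 7 and 4 had an unadjusted p below 0.05 (limma). With the block 3 rose with SHP2 loss alone, where 5.75% of all genes were called. Nlrc5, the class I transactivator gene, stood at 18.8, 20.13, 18.76 and 18.53 FPKM in wild-type, 24.07, 23.87, 26.82 and 22.3 FPKM in SHP2-null, 25.71, 27.75, 26.72 and 28.03 FPKM in BCR-ABL1 wild-type and 25.7, 26.66, 28.29 and 27.72 FPKM in BCR-ABL1 SHP2-null libraries. Like Tap1, it had its 4 lowest values in the wild-type group. Nlrc5 rose by 0.33 ± 0.06 with SHP2 loss alone (limma adjusted p = 0.0115; 0.28 and 0.034 without SHP2-null library 2) and by 0.48 ± 0.06 with BCR-ABL1 (adjusted p = 0.000274). Irf1 and Irf9, interferon pathway transcription factors, rose with BCR-ABL1 (0.41 ± 0.10 and 0.60 ± 0.15, adjusted p = 0.0276 and 0.0315), and with SHP2 loss alone their changes were 0.33 ± 0.10 and 0.57 ± 0.15 (adjusted p = 0.125 and 0.0711).

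Some interferon-induced genes passed the test. Of 17 listed, 9 were tested, of which 1 rose with SHP2 loss alone and 2 with BCR-ABL1 in SHP2 wild-type cells, with 0 lower in both and medians of 0.46 and 0.27. Over all genes 1.54% and 4.67% were called. All 9 estimates were positive in both comparisons, with 6 and 4 at an unadjusted p below 0.05 (limma). With the block 4 rose with SHP2 loss alone, where 5.75% of all genes were called. Without SHP2-null library 2 the median for SHP2 loss alone was 0.21 and 0 passed, Ifi27l2a reaching 1.06 (limma adjusted p = 0.0689). Without that library 4 of the 9 passed with BCR-ABL1 in SHP2 wild-type cells, where 636 of all genes did. The summed level of the 17 ran from 66 to 79.9 FPKM in wild-type, 100 to 187 in SHP2-null, 113 to 140 in BCR-ABL1 wild-type and 114 to 151 in BCR-ABL1 SHP2-null libraries, so the wild-type group was again below the rest. Ifi27l2a rose from 14 ± 5.66 FPKM (SD, n = 4) in wild-type to 32.3 ± 7.76 in SHP2-null and 29.9 ± 5.22 in BCR-ABL1 wild-type libraries (limma adjusted p = 0.0194 and 0.016). Ifitm3 rose with BCR-ABL1 by 1.85 ± 0.40 (adjusted p = 0.0147). Bst2 (0.06 and 0.10) and Ifit2 (0.06 and 0.13) had the smallest estimates of the 9 in the same comparisons. The part of these genes in the class I differences was not tested.

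**Figure D4:**
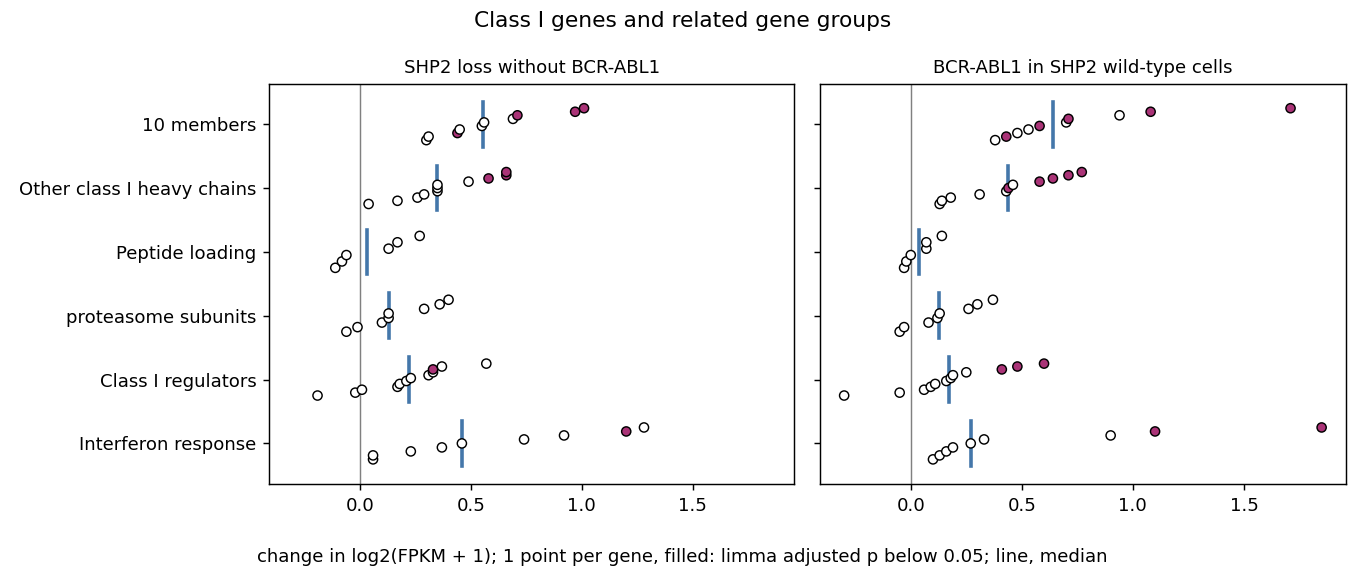
Change in log2(FPKM + 1) (horizontal axis) of each tested gene in 6 gene groups, for SHP2 loss without BCR-ABL1 (left) and BCR-ABL1 in SHP2 wild-type cells (right), filled where the limma adjusted p is below 0.05, with a line at each median. The 10 class I genes have medians of 0.56 and 0.64, the other heavy chains 0.35 and 0.44, and the peptide loading genes 0.04 and 0.03.

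Neighbouring genes of the H2 complex had medians nearer to that of all genes. Of 63 other tested genes between the start of H2-K1 and the end of H2-T23, 2 rose and 0 fell with SHP2 loss alone (Sapcd1 and Msh5, median 0.13) and 4 rose and 0 fell with BCR-ABL1 in SHP2 wild-type cells (these genes, Gpank1 and H2-Ob, median 0.09). Over all genes 1.54% and 4.67% were called in these comparisons. Estimates were positive in 50 and 42 of the 63, against 55.9% and 59.8% of all genes. Of 50 tested genes within 2 Mb on either side, Daxx rose and Pglyrp2 fell with SHP2 loss alone, and Akap8l and Angptl4 rose and Pglyrp2 fell with BCR-ABL1 (medians 0.07 and 0.08, with 33 and 35 estimates positive). The Daxx call was lost without SHP2-null library 2, and Pglyrp2 still passed. With the block 5 rose and 1 fell in each of these sets with SHP2 loss alone, where 5.75% of all genes were called. Sapcd1 rose from 10 ± 0.554 FPKM in wild-type to 17.4 ± 2.03 in SHP2-null libraries (limma adjusted p = 0.00548), and H2-Ob, a class II chain gene, rose from 13.4 ± 2.85 to 23.9 ± 4.67 FPKM with BCR-ABL1 (adjusted p = 0.0107). Of the genes tested, 607 had no position in the annotation.

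Genes with the most similar pattern were ranked by Pearson correlation of log2(FPKM + 1) over the 16 libraries, which share their group differences. For H2-Q5 the nearest genes outside the 10 were Ypel3 (r = 0.95), H2-Q4 (0.94), Nlrc5 (0.93), H2-T10 (0.93) and Dusp2 (0.93). For Tap1 they were H2-Q4 (0.95), Ypel3 (0.95), H2-T10 (0.95), Unc93b1 (0.94) and Ppox (0.94). For H2-K1 they were Nlrp6 (0.97), Ccdc42 (0.97), Oas1a (0.96), Tdrd7 (0.96) and Mxd4 (0.96), and among the 10 it was closest to H2-D1 (0.98) and least close to H2-Q7 (0.67).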

How the data were processed

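The authors deposited FPKM values, 1 column per library, by gene symbol. Per the submitters' processing notes, Bowtie and Cufflinks were used with mouse build mm10 (GRCm38). Versions, annotation and the treatment of strand and of multiply mapped reads were not stated. Entries of 254 symbols listed more than once were summed, and each library's own file repeated its column. Low values fell on a common step for 9.51% to 18.8% of genes per pair of libraries, too few to recover whole reads.

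A filter of 1 FPKM in 4 or more libraries kept 10210 genes, which were fitted as log2(FPKM + 1), a scale that understates changes of low genes, with limma (4 group means, trended prior, two-sided, Benjamini-Hochberg over all genes, call at adjusted p below 0.05), and the fit was tested on simulated data. The 10 genes, the gene lists and the tests were chosen with earlier results of these data known. All 10 genes were named, with up to 3 genes of each other list by smallest p and 5 nearest in pattern to H2-Q5, H2-K1 and Tap1. The motifs and ratios were chosen after values had been seen. Same-number libraries, which the protocol loaded in sets of 1 per group without saying that the number marks the set, deviated together for SHP2 loss with BCR-ABL1 (r = 0.22 to 0.78), SHP2 loss without it (0.19 to 0.51) and BCR-ABL1 in SHP2-null cells (0.24 to 0.68), and the number was taken to pair libraries there. That choice rested on these same data, and libraries of different number were not compared. The same block term, fitted over all 16 libraries, gave the values called paired and those called blocked. Fits used limma 3.58.1 in R 4.3.3, and other steps Python 3.11.15 with pandas 2.3.3. Alternatives covered the pseudocount, filter, scaling, library weights, groups fitted, replicate block, GC correction and leaving out each library. Gene lists were recounted without the library high in Lyz2, a choice made after seeing the data.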

Additional observations from a re-analysis of the deposited data

Results flagged for a closer look

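H2-Q9 stood at 1.198 FPKM in wild-type library 1, against 0.6225 to 0.6804 FPKM in the other 3 wild-type libraries, a gap of 0.899 of the group's range, above Dixon's 95% limit for 4 values. It was the single such case in 40 groups of values looked at, and chance alone gives about 1 in 20.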

How the results depend on the processing

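Over 28 alternative settings, 16 of which left out a library, the 10 genes gave 1360 values in 5 comparisons, of which 1272 kept their direction and side of the threshold, 32 lost a call, 31 gained a call and 25 changed sign. For SHP2 loss without BCR-ABL1 the 4 genes called became 1 in a fit on the 2 groups compared and 7 with the replicate block, and 2 to 5 when a library was left out. For BCR-ABL1 in SHP2 wild-type cells the 5 became 8 with the replicate block, where the lowest correlation of same-number libraries missed the limit for pairing (r = 0.05 to 0.64), and 4 to 6 when a library was left out. For BCR-ABL1 in SHP2-null cells the 1 became 0 with a pseudocount of 0.1, no filter, a mean of at least 5 FPKM, median-ratio scaling, a fit on 2 groups or the summed H2-Q6 to H2-Q9, 5 with array weights, and 0 to 1 when a library was left out. A correction for GC content was added after seeing the data, since SHP2-null libraries correlated with GC by 0.292 on average and wild-type libraries by -0.041. The heavy chain and Tap genes with a value had transcripts of 52.1% (H2-Q7) to 59.3% (H2-Q5) GC and B2m 41.2%, against a median of 49.2% over the genes tested. H2-Q9 had no value and was left uncorrected. With the correction the counts were 3, 5 and 0, and with it and the replicate block 8, 8 and 3. The block changed no call of the 10 in the other 3 comparisons. Over all genes, the 157 called for SHP2 loss without BCR-ABL1 became 34 in the fit on 2 groups, 70 with a mean of at least 5 FPKM, 644 with array weights, 587 with the block, 604 with the block and GC correction and 80 to 164 with a library left out. The 477 for BCR-ABL1 in SHP2 wild-type cells became 186 with a mean of at least 5 FPKM, 837 with array weights, 1231 with the block, 1587 with the block and GC correction and 235 to 636 with a library left out. The 129 for BCR-ABL1 in SHP2-null cells became 30, 33, 1861, 538, 529 and 49 to 176 under the fit on 2 groups, the mean filter, array weights, the block, the block with GC correction and a library left out. The 32 for SHP2 loss with BCR-ABL1 became 11 with the mean filter, 57 with the block and GC correction and 20 to 35 with a library left out, and the 0 for the interaction 3 without a filter and 2 with array weights.

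The sign changes were all in values that did not pass. Tap2 in the BCR-ABL1 comparison of SHP2-null cells was 0.062 with array weights and 0.047 with GC correction, with and without the block. With array weights the interaction was 0.02 for H2-Q6 and 0.15 for H2-Q7. Leaving out a library moved SHP2 loss with BCR-ABL1 from -0.034 to 0.20 in H2-Q9, -0.026 to 0.46 in H2-Q6, -0.19 to 0.57 in H2-Q7, -0.017 to 0.18 in H2-D1, -0.077 to 0.16 in B2m and -0.074 to 0.29 in Tap2. It moved BCR-ABL1 in SHP2-null cells from -0.04 to 0.18 in H2-D1 and from -0.20 to 0.11 in Tap2, and the H2-Q7 interaction from -0.50 to 0.26. The cause was not tested. Unknown depth limits what can be said of H2-Q7 and H2-Q9 at their lowest values.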

Other observations

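The balance within the class I set was looked at as ratios of FPKM, 5 ratios in 4 comparisons, by an exact two-sided permutation test over libraries, in which 4 against 4 cannot go below p = 0.0286. None of the 20 passed adjustment, the smallest adjusted p being 0.0952. H2-K1 over H2-D1 was 0.945 to 1.04 in wild-type libraries and 1.05 to 1.19 in SHP2-null, 1.09 to 1.16 in BCR-ABL1 wild-type and 1.12 to 1.20 in BCR-ABL1 SHP2-null libraries (exact permutation p = 0.0286 for SHP2 loss alone and for BCR-ABL1 in SHP2 wild-type cells). The H2-Q6 to H2-Q9 sum was 0.684 ± 0.0703% of H2-K1 plus H2-D1 (SD, n = 4) in wild-type, 1.09 ± 0.171% in SHP2-null, 1.91 ± 0.155% in BCR-ABL1 wild-type and 2.004 ± 0.599% in BCR-ABL1 SHP2-null libraries. B2m over H2-K1 plus H2-D1 was 1.93 ± 0.264 in wild-type and 1.53 ± 0.0996 in SHP2-null libraries and overlapped between them (exact permutation p = 0.0571).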
